A study of Rattus norvegicus with 12 samples.

Results

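The regulators of G protein signaling (RGS) described here are the 10 genes *Rgs2*, *Rgs3*, *Rgs4*, *Rgs5*, *Rgs7*, *Rgs10*, *Rgs12*, *Rgs16*, *Rgs17* and *Rgs19*, chosen by name from the gene symbols of the array platform. Each had 1 probe set, so 10 of the 23188 probe sets on the array are described. They were measured in rat vascular smooth muscle cells (RVSMCs), grown for 3 passages after isolation from the thoracic aorta of Sprague-Dawley rats (male, aged 12 weeks). There were 4 groups of 3 arrays: cells transfected with AlivecGap and treated with AngII, NCGap with AngII, AlivecGap with PBS, and NCGap with PBS. AlivecGap is an antisense GapmeR against the long non-coding RNA *Alivec*, NCGap is a non-targeting GapmeR (spelled NGGap in some labels), and both were used at 100 nM. AngII is angiotensin II, the peptide hormone that contracts vascular smooth muscle, given at 100 nM for 3 h, with PBS as its vehicle. Every group was transfected for 48 h and serum depleted, so no group held untransfected cells. *Alivec* had no named probe set, and its knockdown was not measured on these arrays.

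G protein-coupled receptors signal by loading the alpha subunit of a G protein with GTP, and RGS proteins end that signal because their RGS domain speeds GTP hydrolysis by the alpha subunit. The AngII type 1 receptor of smooth muscle acts mainly through Gq, which activates phospholipase C beta and raises calcium. Mammalian RGS proteins form the R4 subfamily of small proteins (here *Rgs2*, *Rgs3*, *Rgs4*, *Rgs5* and *Rgs16*), the RZ subfamily (*Rgs17* and *Rgs19*), the R12 subfamily (*Rgs10* and *Rgs12*) and the R7 subfamily (*Rgs7*), whose members pair with the G protein beta subunit encoded by *Gnb5*.

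With NCGap, AngII raised *Rgs2*, *Rgs16* and *Rgs17* and lowered *Rgs4*, *Rgs12* and *Rgs10*. With AlivecGap, AngII raised the same 3 genes and lowered *Rgs4* and *Rgs12*. The call of *Rgs12* with AlivecGap was lost in 12 of 20 alternative fits, and that of *Rgs10* with NCGap in 6 of 20. *Rgs2* was 6.22-fold higher with AngII than with PBS in AlivecGap cells and 8.26-fold higher in NCGap cells. No RGS gene passed an adjusted p of 0.05 between AlivecGap and NCGap, with either treatment. The lowest of these differences were those of *Rgs16* with AngII and of *Rgs4* with PBS.

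The promoters of the 5 genes called with AngII under both GapmeRs are shown because these genes moved in 2 directions under 1 stimulus. Each window holds 250 bases before to 50 after the start of the gene in RefSeq (rat build GRCr8), read 5′ to 3′ on the strand of the gene. All 10 RGS genes matched the table, which has 1 start per gene. Capitals mark matches, on either strand, to the core of the cAMP response element (CRE; TGACG, or CGTCA on the other strand), to the AP-1 site (TGAGTCA, or TGACTCA) and to the TATA box (TATAAA). The first 3 genes rose with AngII and the last 2 fell.
*Rgs2*, chr13:58352617-58352916, minus strand: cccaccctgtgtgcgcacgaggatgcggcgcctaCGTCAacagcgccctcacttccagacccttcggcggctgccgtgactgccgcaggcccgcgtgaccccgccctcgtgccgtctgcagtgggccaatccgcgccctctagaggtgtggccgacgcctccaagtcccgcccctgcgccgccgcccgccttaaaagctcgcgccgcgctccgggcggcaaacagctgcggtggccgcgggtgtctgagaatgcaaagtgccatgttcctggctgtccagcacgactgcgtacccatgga
*Rgs16*, chr13:68437870-68438169, plus strand: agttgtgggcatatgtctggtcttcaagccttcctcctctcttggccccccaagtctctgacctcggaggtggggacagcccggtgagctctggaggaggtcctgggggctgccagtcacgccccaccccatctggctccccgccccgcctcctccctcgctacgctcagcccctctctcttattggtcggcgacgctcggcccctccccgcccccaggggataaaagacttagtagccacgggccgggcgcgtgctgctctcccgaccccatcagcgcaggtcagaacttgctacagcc
*Rgs17*, chr1:44729896-44730195, minus strand: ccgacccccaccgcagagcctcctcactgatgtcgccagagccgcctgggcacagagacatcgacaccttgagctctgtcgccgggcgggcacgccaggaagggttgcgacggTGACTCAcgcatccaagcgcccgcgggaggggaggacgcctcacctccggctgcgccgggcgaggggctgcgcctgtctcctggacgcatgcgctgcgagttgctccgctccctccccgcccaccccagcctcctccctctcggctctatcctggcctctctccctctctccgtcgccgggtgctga
*Rgs4*, chr13:84475835-84476134, minus strand: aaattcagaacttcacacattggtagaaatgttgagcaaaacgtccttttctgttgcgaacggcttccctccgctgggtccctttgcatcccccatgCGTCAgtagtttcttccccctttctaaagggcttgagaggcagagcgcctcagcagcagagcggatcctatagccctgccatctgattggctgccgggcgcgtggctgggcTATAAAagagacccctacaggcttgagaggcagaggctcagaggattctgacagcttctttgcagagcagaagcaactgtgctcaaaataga
*Rgs12*, chr14:80034810-80035109, minus strand: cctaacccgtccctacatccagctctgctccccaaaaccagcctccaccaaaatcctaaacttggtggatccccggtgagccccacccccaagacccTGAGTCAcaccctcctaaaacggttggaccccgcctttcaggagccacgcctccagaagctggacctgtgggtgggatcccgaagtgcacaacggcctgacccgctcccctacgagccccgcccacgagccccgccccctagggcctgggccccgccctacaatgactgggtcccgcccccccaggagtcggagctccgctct

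The CRE core was found in *Rgs2* and *Rgs4* of these 5, and in *Rgs3* among the others. Counted from the gene start, it begins at position -216 in *Rgs2* and -153 in *Rgs4*. Of 33469 rat promoters of this length, 21.2% held it. The AP-1 site was found in *Rgs17*, from position -137, and in *Rgs12*, from -153, against 4.63% of all promoters. Among the 5 genes, each of these 2 motifs thus lay in 1 gene that rose and in 1 that fell. *Rgs4* held a TATA box from position -42, which 14.2% of all promoters hold somewhere in the window. The GC box (GGGCGG, or CCGCCC), not marked above, was found in 8 of the 10 promoters, *Rgs4* and *Rgs19* excepted, and in 33.1% of all promoters. The full CRE (TGACGTCA, which holds the core on both strands) and the CArG box, the motif of serum response factor, were found in none of the 10, against 1.83% and 1.64% of all promoters. The core of NFAT sites (GGAAA, or TTTCC) was found in 3 of the 10, none of them among the 5 shown, and in 62.7% of all promoters. The share of G and C in the 10 windows ran from 52.7% (*Rgs4*) to 77.3% (*Rgs7*), and its part in these motif counts was not tested. A match says only that the letters are in the window.

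Signals are log2 values after normalization by the authors. They can be compared between arrays for 1 probe set but not between probe sets, which bind RNA with different strength. The methods of the study take a log2 signal under 6 as no or low expression, and a probe set was tested here where it reached 6 on at least 3 of the 12 arrays. This kept 14796 probe sets and 9 of the 10 RGS genes. *Rgs2*, *Rgs3*, *Rgs10*, *Rgs12*, *Rgs16*, *Rgs17* and *Rgs19* were at or above 6 on all arrays. *Rgs4* was under 6 on 4 arrays, all with AngII. *Rgs5* reached 6 on 3 arrays, and *Rgs7* on none, so *Rgs7* has levels but no test. Array medians were 6.68 to 6.76, arrays of 1 group correlated at 0.992 to 0.995, and no array was set aside. All 8 smooth muscle markers (such as *Acta2* and *Myh11*) were at or above 6 on every array, while 5 of 6 endothelial markers (such as *Pecam1* and *Cdh5*) were under 6 on every array and *Tie1* reached 6.26 on 1. Of 5 leukocyte markers, *Ptprc*, *Cd3e* and *Itgam* were under 6 on every array, *Cd68* was at 6.81 to 7.28 on all, and *Cd14* reached 6 on 3 AlivecGap arrays with AngII and 1 NCGap array with AngII.

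**Figure D1:**
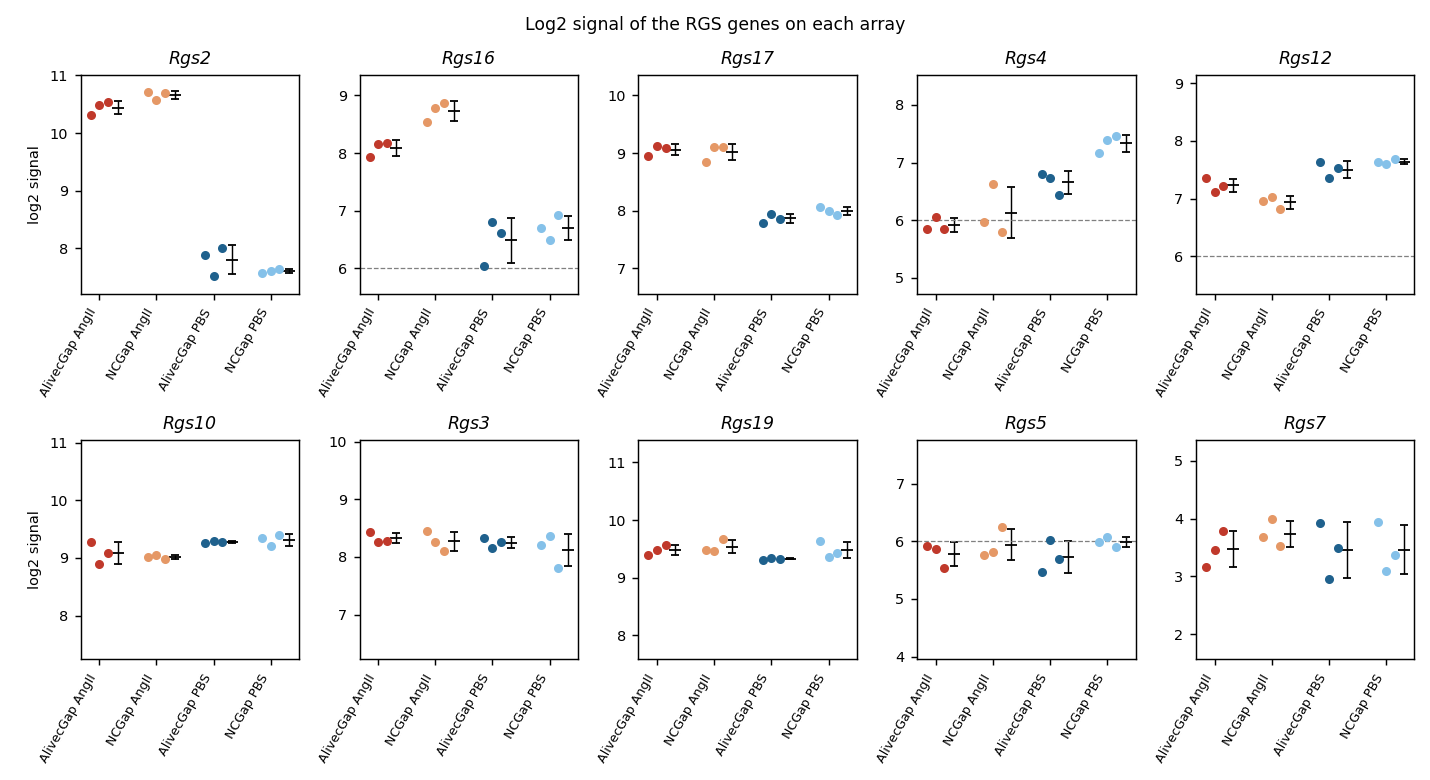
Log2 signal (vertical axis, the same span of units in each panel) of the 10 RGS genes on each of the 12 arrays. Points are arrays in order of replicate number, black marks are the group mean and SD (n = 3), and the dashed line is a log2 signal of 6. *Rgs2*, *Rgs16* and *Rgs17* are higher on all 6 AngII arrays than on all 6 PBS arrays, and *Rgs4*, *Rgs5* and *Rgs7* lie wholly or partly under 6.

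*Rgs2*, the R4 member known for its preference for Gq and for a blood pressure phenotype in knockout mice, had the largest change of the 10. Its log2 signals were 10.31, 10.48 and 10.54 in AlivecGap cells with AngII, against 7.89, 7.52 and 8.0 in AlivecGap cells with PBS. In NCGap cells they were 10.71, 10.57 and 10.69 with AngII, against 7.58, 7.61 and 7.65 with PBS. The AngII arrays lay more than 2 log2 units above the PBS arrays under both GapmeRs. With AlivecGap the log2 fold change was 2.64 (SE 0.110, limma adjusted p = 8.0e-09), the 24th highest of the 14796 probe sets tested. With NCGap it was 3.05 (SE 0.110, adjusted p = 1.9e-09), the 18th highest.

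*Rgs16*, another R4 member, which acts on both Gi and Gq, also rose. It measured 7.93, 8.16 and 8.17 in AlivecGap cells with AngII, against 6.05, 6.80 and 6.61 in AlivecGap cells with PBS. In NCGap cells it measured 8.54, 8.78 and 8.87 with AngII, against 6.70, 6.5 and 6.92 with PBS. All AngII arrays were above all PBS arrays, and within the AngII arrays the 3 with NCGap were above the 3 with AlivecGap. The rise was 3.03-fold with AlivecGap (log2 1.60, SE 0.172, limma adjusted p = 3.2e-05) and 4.07-fold with NCGap (log2 2.03, SE 0.172, adjusted p = 3.2e-06). The AlivecGap array with PBS at 6.05 was the lowest of the 12, and the SD of that group was 0.39, against 0.14 to 0.21 in the other 3.

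*Rgs17*, of the RZ subfamily that acts on Gi family alpha subunits and on Gz, rose by a similar factor under both GapmeRs. It measured 8.95, 9.13 and 9.09 in AlivecGap cells with AngII, against 7.79, 7.95 and 7.86 with PBS. In NCGap cells it measured 8.85, 9.10 and 9.10 with AngII, against 8.07, 7.99 and 7.93 with PBS. All AngII arrays were above all PBS arrays, and the GapmeRs overlapped within each treatment. The rise was 2.28-fold with AlivecGap (log2 1.19, SE 0.0855, limma adjusted p = 9.2e-07) and 2.03-fold with NCGap (log2 1.02, SE 0.0855, adjusted p = 2.8e-06).

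*Rgs4*, the R4 member known for its action on Gi and Gq and for control of its protein by degradation, fell. It measured 5.84, 6.05 and 5.85 in AlivecGap cells with AngII, against 6.80, 6.74 and 6.43 with PBS. In NCGap cells it measured 5.97, 6.63 and 5.80 with AngII, against 7.17, 7.39 and 7.45 with PBS. Only 1 of the 3 AngII arrays under each GapmeR reached 6, and all 6 AngII arrays but the NCGap array at 6.63 lay below every PBS array. With NCGap the level fell to 0.433 of that with PBS (log2 change -1.21, SE 0.179, limma adjusted p = 2.9e-04), the 48th lowest change of all tested. With AlivecGap the mean with AngII was under 6, so the fall is given as a bound, at least 1.57-fold lower with AngII, and the fitted log2 change was -0.74 (SE 0.179, adjusted p = 0.00926).

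*Rgs12*, the large R12 member that also carries a GoLoco motif for binding inactive Gi alpha subunits, fell with NCGap. Its signals were 6.97, 7.03 and 6.81 in NCGap cells with AngII, against 7.64, 7.60 and 7.69 with PBS. In AlivecGap cells they were 7.35, 7.12 and 7.21 with AngII, against 7.63, 7.35 and 7.53 with PBS. With NCGap the arrays were apart by more than 0.5 log2 units, and with AlivecGap the highest AngII array and the lowest PBS array overlapped. The log2 change was -0.28 with AlivecGap (SE 0.0901, limma adjusted p = 0.0403) and -0.71 with NCGap (SE 0.0901, adjusted p = 8.9e-05). The call with AlivecGap was lost in 12 of 20 alternative fits, with limma adjusted p values between 0.0201 and 0.150 over the 20. Of these 12, 6 left out 1 array: replicate 1 of NCGap with PBS, 1 or 3 of AlivecGap with PBS, 1 of NCGap with AngII, and 2 or 3 of AlivecGap with AngII. The rest changed the processing: no moderation of the spread, a spread prior following the signal, no filter, quantile normalization, median centring, or only the groups compared.

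*Rgs10*, the smallest R12 member, passed the test with NCGap. It measured 9.27, 8.90 and 9.09 in AlivecGap cells with AngII, against 9.27, 9.29 and 9.27 with PBS. In NCGap cells it measured 9.01, 9.05 and 8.98 with AngII, against 9.34, 9.20 and 9.39 with PBS. The groups were apart with NCGap and met at 9.27 with AlivecGap. The log2 change with AlivecGap was -0.19 (SE 0.0890, limma adjusted p = 0.141), and with NCGap it was -0.29 (SE 0.0890, adjusted p = 0.0245). The call with NCGap was lost in 6 of 20 alternative fits, with adjusted p values between 0.00679 and 0.0789: without the filter on low signal, with arrays centred on their medians, and without replicate 1 or 3 of NCGap with PBS or with AngII. Without replicate 1 of AlivecGap with AngII, *Rgs10* also passed with AlivecGap (limma adjusted p = 0.0317).

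*Rgs3*, *Rgs19* and *Rgs5* did not pass the test for AngII under either GapmeR. *Rgs3*, an R4 member with several long isoforms, ranged from 7.81 to 8.45 over the 12 arrays, and its log2 change with AngII was 0.08 with AlivecGap (95% interval -0.20 to 0.36) and 0.14 with NCGap (-0.14 to 0.42). *Rgs19*, the RZ member also known as GAIP, measured 9.39, 9.48 and 9.57 in AlivecGap cells with AngII, against 9.31, 9.34 and 9.33 with PBS, so these groups did not overlap. Its log2 change was 0.15 with AlivecGap (limma adjusted p = 0.218) and 0.06 with NCGap (adjusted p = 0.643). *Rgs5*, an R4 member used as a marker of pericytes, ranged from 5.47 to 6.25, with log2 changes of 0.05 with AlivecGap (95% interval -0.30 to 0.39) and -0.04 with NCGap (-0.39 to 0.30). The other pericyte markers *Pdgfrb*, *Cspg4*, *Notch3* and *Abcc9* were at or above 6 on all arrays and *Kcnj8* was under 6 on all.

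*Rgs7* was under 6 on every array. It measured 3.16, 3.45 and 3.79 in AlivecGap cells with AngII, 3.69, 3.99 and 3.53 in NCGap cells with AngII, 3.92, 2.95 and 3.49 in AlivecGap cells with PBS, and 3.94, 3.09 and 3.37 in NCGap cells with PBS. The 4 groups overlapped.

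**Figure D2:**
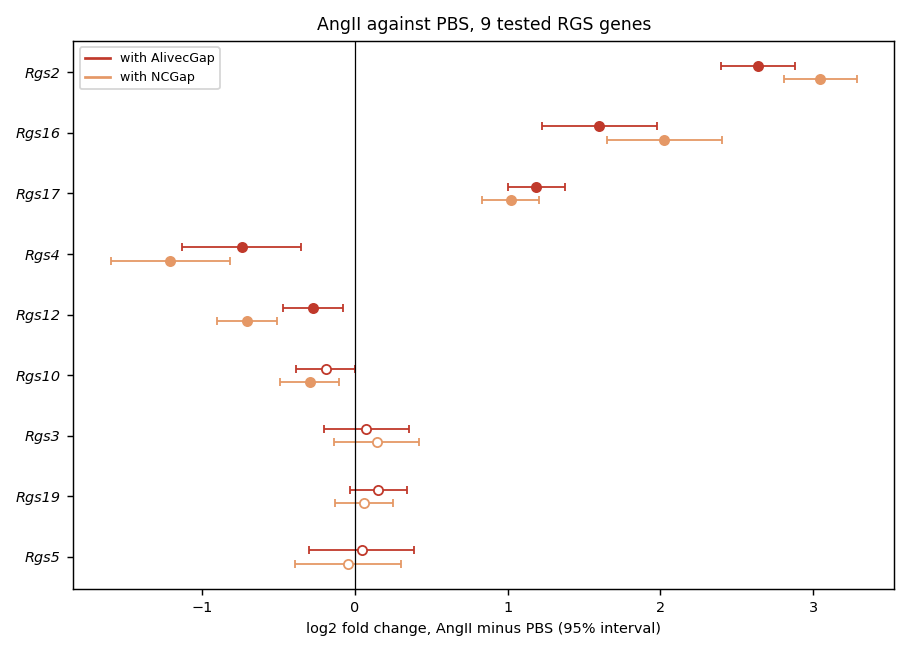
Log2 fold change of AngII over PBS (horizontal axis) for the 9 tested RGS genes, with AlivecGap above and NCGap below in each row. Bars are 95% intervals from limma, and filled points have an adjusted p under 0.05. *Rgs2*, *Rgs16* and *Rgs17* lie to the right of 0 under both GapmeRs, and *Rgs4* and *Rgs12* to the left.

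Over the 9 tested genes, AngII with AlivecGap raised 3 and lowered 2 at an adjusted p under 0.05, against 10.8% raised and 15.6% lowered over all probe sets tested. With NCGap it raised 3 and lowered 3, against 13.3% and 17.9%. The arrays did not overlap, higher with AngII, for 4 genes with AlivecGap (16.9% of all tested) and for 3 with NCGap (17.0%), and lower for 1 with AlivecGap (26.6%) and for 3 with NCGap (25.2%). With each array centred on its median, all probe sets with NCGap split into 2309 raised and 1836 lowered, beside 1968 and 2652 as deposited, and *Rgs10* was no longer called. The 2 comparisons share no arrays but share 1 estimate of the spread. The median log2 change was 0.08 with AlivecGap and 0.06 with NCGap, against -0.04 and -0.05 over all probe sets. The RGS genes described here were chosen with earlier results of these data known. Of the other RGS genes, *Rgs6*, *Rgs8* and *Rgs14* were tested, and none passed an adjusted p of 0.05 for AngII under either GapmeR.

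**Figure D3:**
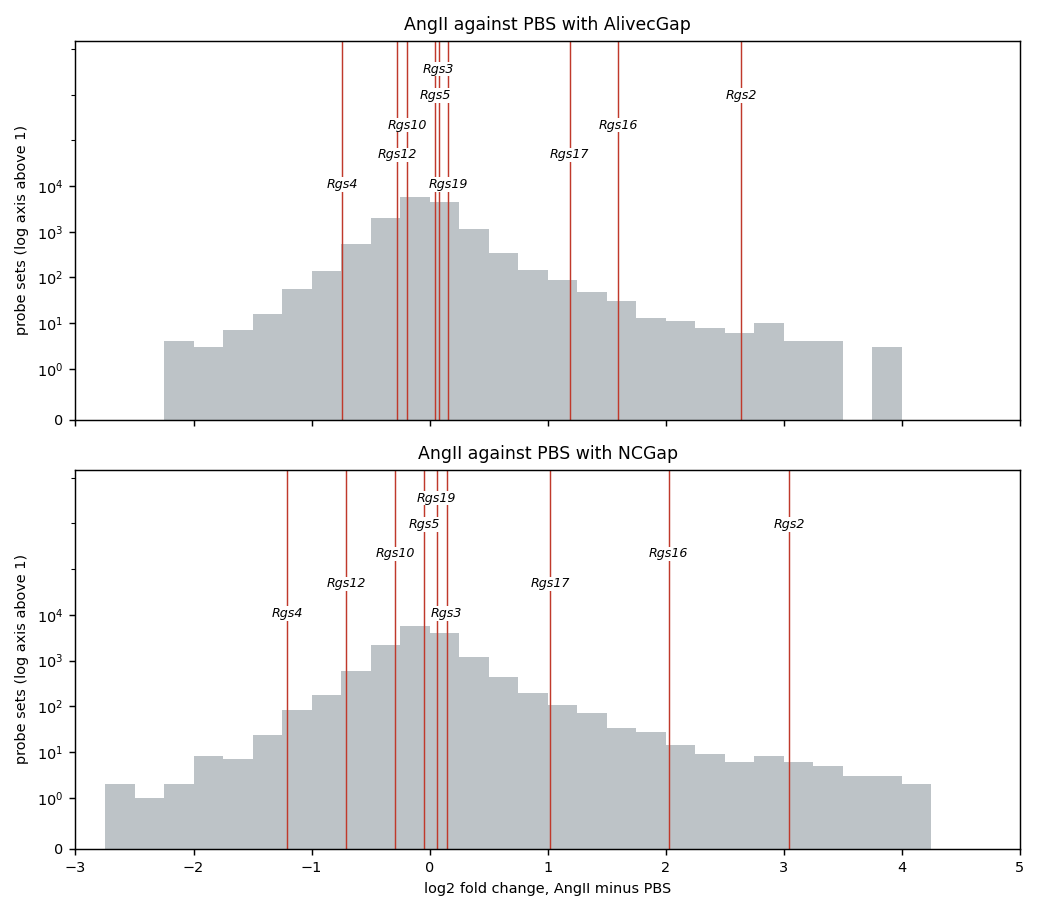
Number of probe sets (vertical axis, logarithmic above 1) by log2 fold change of AngII over PBS (horizontal axis, bins of 0.25), over the 14796 tested, with AlivecGap on top and NCGap below. Red lines mark the 9 tested RGS genes. *Rgs2* lies in the right tail of both panels, and *Rgs4* in the left tail.

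Between GapmeRs the differences were smaller. With AngII, *Rgs16* was at 7.93, 8.16 and 8.17 with AlivecGap, against 8.54, 8.78 and 8.87 with NCGap, a log2 difference of -0.64 (SE 0.172, unadjusted p = 0.00284, limma adjusted p = 0.125). The arrays did not overlap, and this was the 18th lowest of the 14796 differences. *Rgs12* ran the other way, at 7.35, 7.12 and 7.21 with AlivecGap, against 6.97, 7.03 and 6.81 with NCGap (log2 0.29, SE 0.0901, unadjusted p = 0.00692, limma adjusted p = 0.198). *Rgs2* was lower on all 3 AlivecGap arrays, with a mean of 10.44 ± 0.12 (SD, n = 3), against 10.66 ± 0.08 with NCGap (log2 -0.22, limma adjusted p = 0.495).

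With AngII, 0 of the 9 genes passed an adjusted p of 0.05, against 0.818% of all probe sets, and 2 had an unadjusted limma p under 0.05, against 11.6%. By the criteria of the study, which ask for a change of 1.2-fold or more and p under 0.05 without adjustment, *Rgs12* was higher, against 2.86% of all, and *Rgs16* lower, against 3.24%. The arrays did not overlap for 1 higher gene (*Rgs12*), against 8.60% of all, and for 2 lower ones (*Rgs16* and *Rgs2*), against 9.65%. *Rgs4*, *Rgs5*, *Rgs19*, *Rgs10*, *Rgs3* and *Rgs17* had log2 differences between -0.22 and 0.07. The AlivecGap mean of *Rgs4* was 5.92, under 6, so as a bound it was at least 1.10-fold lower with AlivecGap. The value of *Rgs4* rested on 1 array: without replicate 2 of NCGap with AngII, at 6.63, the log2 difference was 0.03.

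With PBS, *Rgs4* was at 6.80, 6.74 and 6.43 with AlivecGap, against 7.17, 7.39 and 7.45 with NCGap. The arrays did not overlap, and the log2 difference of -0.68 (SE 0.179, unadjusted p = 0.00243, limma adjusted p = 0.158) was the 6th lowest of all. *Rgs19* was also lower on all 3 AlivecGap arrays, with a mean of 9.33 ± 0.011 (SD, n = 3), against 9.47 ± 0.14 with NCGap (log2 -0.15, limma adjusted p = 0.637). The other 7 tested genes overlapped, with log2 differences between -0.25 for *Rgs5* and 0.19 for *Rgs2*.

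With PBS, 0 of the 9 genes passed an adjusted p of 0.05, against 0.399% of all probe sets, and 1 had an unadjusted limma p under 0.05, against 9.64%. By the criteria of the study *Rgs4* alone was lower, against 2.69% of all, and none was higher, against 2.24%. The arrays did not overlap for 2 lower genes, against 7.30% of all. In the mean of both treatments *Rgs4* (log2 -0.45, limma adjusted p = 0.0939) and *Rgs16* (log2 -0.43, adjusted p = 0.0970) were lower by the criteria of the study, against 2.05% of all. The value of *Rgs4* in the mean includes AngII signals under 6 with both GapmeRs. Neither gene passed the adjusted threshold, which 2.73% of all did. Both passed it, in the mean and in *Rgs16* with AngII and *Rgs4* with PBS, when the prior for the spread followed the signal. With a term for the replicate number in the fit, *Rgs16* passed it in the mean (limma adjusted p = 0.0443). Leaving out 1 array also took some of these past it. For *Rgs4* with PBS it was replicate 2 of NCGap with AngII (limma adjusted p = 0.0465), and for *Rgs16* with AngII replicate 1 of AlivecGap with PBS (0.0499). Neither array is in its comparison, so the log2 differences stayed at -0.68 and -0.64 and only the spread estimate changed. For *Rgs4* in the mean it was replicate 3 of NCGap with AngII (0.0440), and for *Rgs16* in the mean replicate 2 of AlivecGap with PBS (0.0492).

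**Figure D4:**
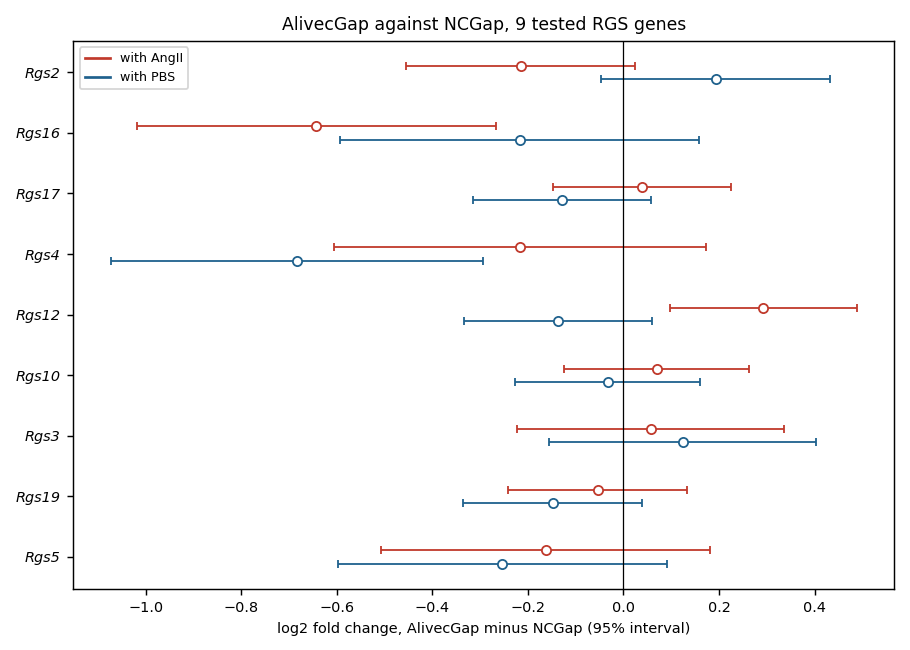
Log2 fold change of AlivecGap over NCGap (horizontal axis) for the 9 tested RGS genes, with AngII above and PBS below in each row. Bars are 95% intervals from limma, and open points did not reach an adjusted p of 0.05. The intervals of *Rgs16* and *Rgs12* with AngII and of *Rgs4* with PBS do not reach 0.

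Cell type markers were set beside these differences. Of the adventitial fibroblast markers with a probe set, *Dcn* was higher with AlivecGap than with NCGap with AngII (9.16 against 8.58, log2 0.58, limma adjusted p = 0.0283) and *Lum*, *Pdgfra* and *Pi16* were not called. All of these 4 markers were at or above 6 on every array. The mean of the list ranged from 8.32 to 8.39 in AlivecGap cells with AngII, against 7.98 to 8.18 in NCGap cells with AngII, and from 8.49 to 8.67 in AlivecGap cells with PBS, against 8.34 to 8.42 in NCGap cells with PBS. *Dcn* was also called in the mean of both treatments (log2 0.54, limma adjusted p = 0.00294). The leukocyte marker *Cd14* averaged 6.30 with AlivecGap and AngII, against 5.66 with NCGap and AngII (log2 0.64, limma adjusted p = 0.128), and was higher by the study's criteria, while the mean of its list was 4.97 to 5.22 in AlivecGap cells with AngII, against 4.87 to 5.21 in NCGap cells with AngII. The smooth muscle marker *Cnn1*, which encodes calponin, was lower with AlivecGap in the mean of both treatments (log2 -0.25, limma adjusted p = 0.0117), the single call between GapmeRs among the 8 smooth muscle markers. The mean of that list was 10.74 to 10.84 with AlivecGap and AngII, against 10.88 to 10.91 with NCGap and AngII, and 10.78 to 10.94 with AlivecGap and PBS, against 10.94 to 11.02 with NCGap and PBS. No pericyte or Schwann cell marker tested was called between GapmeRs. The part of these markers in the RGS differences was not tested, and in RNA from whole cultures fewer cells of a type and less RNA per cell cannot be told apart.

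The response to AngII was compared between GapmeRs as the change with AlivecGap minus the change with NCGap. For *Rgs2* the response was smaller with AlivecGap by 0.41 on the log2 scale (difference -0.41, 95% interval -0.75 to -0.07, unadjusted p = 0.0223, limma adjusted p = 0.898). For *Rgs12* the difference was 0.43 (0.15 to 0.71, unadjusted p = 0.0055, limma adjusted p = 0.876), the fall being smaller with AlivecGap. *Rgs16* differed by -0.43 (-0.96 to 0.10) and *Rgs4* by 0.47 (-0.08 to 1.02). For *Rgs4*, 2 of 3 AngII arrays under each GapmeR were under 6, so its difference rests in part on low signals. No RGS gene passed the adjusted threshold, nor did any probe set (0%), and 2 of the 9 genes had an unadjusted p under 0.05, against 5.50% of all. The AngII response with NCGap and the AlivecGap difference with AngII share the NCGap arrays with AngII, so their values for 1 gene are not independent.

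The genes whose signals ran closest to each called RGS gene with at least 1.5-fold change were found by the distance between signals over the 12 arrays, each gene centred on its own mean, among 10182 named genes. Nearest to *Rgs2* were *Dot1l*, a histone H3 methyltransferase, at a distance of 0.456, *Cdhr1* at 0.564 and *Plaur*, the urokinase receptor, at 0.607, where *Rgs2* itself lay 4.95 from a flat line at its mean. Nearest to *Rgs16* were *Dok5* at 0.642, *Hk2* (hexokinase) at 0.769 and *Flnc* (filamin C) at 0.820, against 3.32 for *Rgs16* from its mean. With PBS, *Hk2* averaged 5.50 with AlivecGap and 5.72 with NCGap, both under 6. *Dok5* was lower by 0.57 on the log2 scale with AlivecGap and AngII (log2 difference -0.57), beside -0.64 for *Rgs16*. As *Dok5* was picked for its closeness over these same arrays, this likeness is not a separate result. Nearest to *Rgs17* were *Vasn* (0.292), *Mob3a* (0.299) and *Itga7*, an integrin of muscle (0.337), against 1.94. Nearest to *Rgs4* were *Pi15* (0.853), *Suox* (0.866) and *Cd200* (0.925), against 2.03, the widest of these nearest distances. Nearest to *Rgs12* were *Oma1* (0.348), *Prkaa1* (0.348) and *Ttll1* (0.360), against 0.987.

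The rest of the G protein pathway was described with 9 lists of 86 genes, of which 77 had a probe set and 56 were tested. AngII with AlivecGap raised 8 and lowered 5 of these 56 (23.2%, against 26.3% of all probe sets), and with NCGap it raised 8 and lowered 6 (25%, against 31.2%). None of the 56 passed an adjusted p of 0.05 between GapmeRs. The unadjusted limma p was under 0.05 for 8 of them with AngII, against 11.6% of all probe sets, and for 3 with PBS, against 9.64%. By the criteria of the study, 2 were higher and 5 lower with AlivecGap under AngII, against 2.86% and 3.24% of all. Among the 5 lower were *Plcb4* (log2 -0.42, limma adjusted p = 0.0680) and *Agtr1a* (log2 -0.37, adjusted p = 0.0805). With PBS, 1 was higher and 1 lower, against 2.24% and 2.69%.

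At the receptor, *Agtr1a*, which encodes the main AngII receptor of rat smooth muscle, fell. Its mean was 9.46 in AlivecGap cells with AngII, against 10.95 with PBS (log2 change -1.49, SE 0.0875, limma adjusted p = 1.5e-07). In NCGap cells it was 9.83 with AngII, against 11.05 with PBS (log2 change -1.22, SE 0.0875, adjusted p = 7.0e-07). *Agtr1b*, the second type 1 receptor gene of the rat, was under 6 on all AngII arrays and just above it on all PBS arrays. With NCGap it averaged 5.78 with AngII, against 6.16 with PBS, which is called and at least 1.12-fold lower (limma adjusted p = 0.0253), and with AlivecGap 5.81 with AngII, against 6.11 with PBS (adjusted p = 0.0723). *Agtr2*, the type 2 receptor, was under 6 on all arrays. *Agtrap*, which binds the type 1 receptor, fell with NCGap (log2 change -0.34, limma adjusted p = 0.00267), and its change with AlivecGap was -0.14 (adjusted p = 0.156).

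Of the kinases and arrestins that silence receptors, *Grk6* rose to 8.87 with AngII, against 8.28 with PBS, in AlivecGap cells (limma adjusted p = 4.4e-04), and to 8.96, against 8.28, in NCGap cells (adjusted p = 1.2e-04). *Grk5* rose by 0.38 with AlivecGap and 0.32 with NCGap on the log2 scale. *Arrb1*, which encodes beta-arrestin 1, fell with NCGap (log2 change -0.64, limma adjusted p = 0.00135).

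Of 11 tested alpha subunits, *Gnai1* rose under both GapmeRs (log2 0.31 with AlivecGap and 0.29 with NCGap), and *Gna13* (0.51) and *Gnai3* (0.24) rose with NCGap. *Gnaq* and *Gna11*, which encode the alpha subunits of Gq and G11, were not called. Of 10 tested beta and gamma subunits, *Gng8* fell with AlivecGap (log2 change -0.42). Of 10 tested effectors, *Adcy4*, an adenylyl cyclase, rose under both (log2 0.34 with AlivecGap and 0.45 with NCGap), and *Plcb4*, a phospholipase C beta, fell with AlivecGap (log2 change -0.39, limma adjusted p = 0.00946).

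Among other regulators of alpha subunits, *Gpsm2*, a GoLoco protein, fell to 7.02 with AngII, against 7.70 with PBS, in AlivecGap cells (limma adjusted p = 0.00624) and to 6.73, against 7.87, in NCGap cells (adjusted p = 1.4e-04). *Gpsm1* (log2 0.33) and *Ric8a* (0.22) rose with AlivecGap. Of proteins with an RGS-like domain, *Axin1* rose under both (log2 0.40 with AlivecGap and 0.42 with NCGap) and *Snx14* fell with AlivecGap (log2 change -0.39). Of the partners of the R7 subfamily, *Rgs7bp*, which anchors R7 complexes at the membrane, rose under both (log2 0.59 with AlivecGap and 0.63 with NCGap), while *Gnb5* fell with NCGap (log2 change -0.34). Of 11 other RGS genes, 9 had a probe set and 6 of these were under 6 on all arrays. *Rgs6*, *Rgs8* and *Rgs14* were tested, and none passed an adjusted p of 0.05 in any comparison. By the study's criteria *Rgs8* was lower with AlivecGap than with NCGap under PBS (log2 -0.37, limma adjusted p = 0.356), against 2.69% of all probe sets. It was higher with AngII than with PBS under AlivecGap (log2 0.35, adjusted p = 0.0766), as were 1634 of the 14796 tested. These 2 comparisons share the AlivecGap arrays with PBS. *Rgs14* differed in its response by the same criteria (log2 0.34, limma adjusted p = 0.898), as did 692 of the 14796. Its signals ran from 5.96 to 6.39, near the limit of 6. In the order of protein-coding genes of GRCr8, *Rgs8* lies beside *Rgs16*, *Rgs5* beside *Rgs4* and *Rgs13* beside *Rgs2*. *Rgs8* averaged 6.47 in AlivecGap cells and 6.58 in NCGap cells with AngII, against 6.12 in AlivecGap cells and 6.49 in NCGap cells with PBS.

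**Figure D5:**
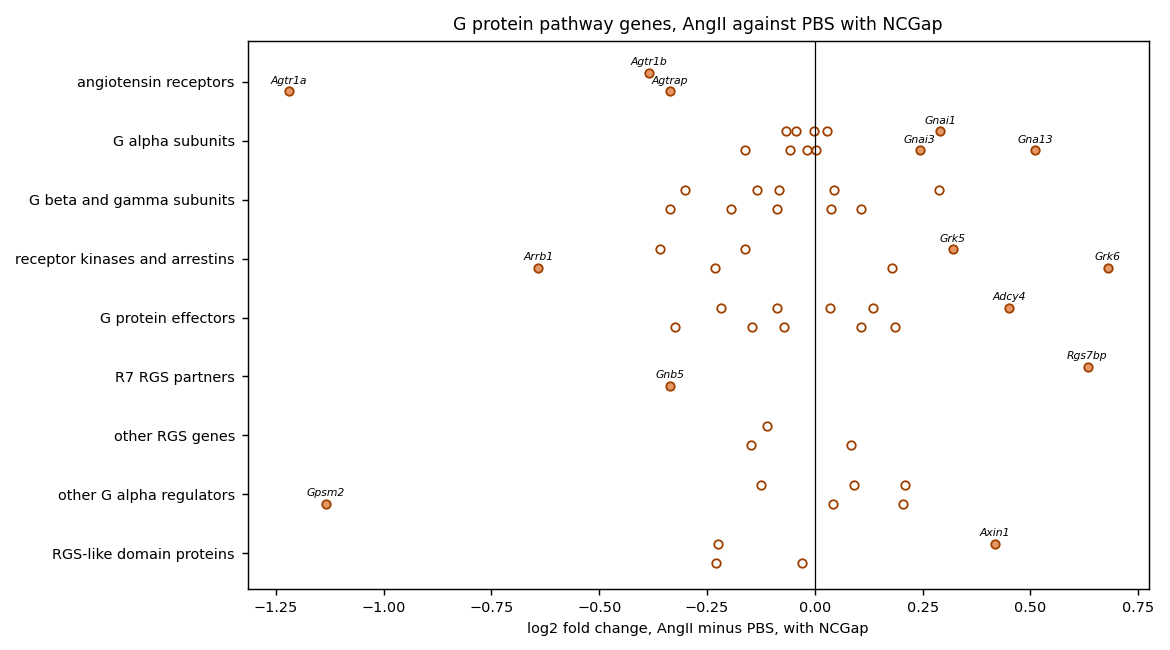
Log2 fold change of AngII over PBS with NCGap (horizontal axis) for the 56 tested genes of the 9 G protein pathway lists, 1 list per row. Filled and named points have an adjusted p under 0.05. *Agtr1a* and *Gpsm2* had the lowest changes, and *Grk6* and *Rgs7bp* the highest.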

How the data were processed

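RNA of RVSMCs in 4 groups of 3 arrays was hybridized to Clariom S rat arrays. The authors deposited 1 table of log2 signal for 23188 probe sets, normalized by Robust Multichip Average in Partek Genomics Suite. The genome build of the probe sets is not given in the sources used here. The methods call the replicates independent, so p values cover the spread among 3 arrays a group, and their number limits the precision. Gene symbols came from the platform annotation, updated through RefSeq (GRCr8), and 15049 probe sets had 1 symbol, 8139 none and 0 several.

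Probe sets that reached 6 on 3 or more arrays were tested with limma 3.58.1 in R 4.3.3 (lmFit and eBayes on 4 group means), with Benjamini-Hochberg adjustment over all 14796. The study used an analysis of variance in Partek, with signals under 6 removed. A group mean under 6 was set to 6 for a bound. The tests were run on simulated data first. Alternatives changed the spread model, filter, scaling, replicate term and arrays. The RGS genes and the lists were chosen with earlier results of these data known. All 10 RGS genes are named, and of the lists at most 3 called genes per list and comparison, plus the AngII receptor genes.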

Additional observations from a re-analysis of the deposited data

Results flagged for a closer look

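In 2 RGS genes the response to AngII differed between GapmeRs by the test of the difference itself, before adjustment over all probe sets. The log2 response of *Rgs2* with AlivecGap minus that with NCGap was -0.41 (unadjusted p = 0.0223, limma adjusted p = 0.898). That of *Rgs12* was 0.43 (unadjusted p = 0.0055, limma adjusted p = 0.876). Neither passes the adjustment, and 814 of the 14796 probe sets tested (5.50%) had an unadjusted p under 0.05. Single outlying values were not tested for in groups of 3 arrays.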

How the results depend on the processing

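The 11 called effects of RGS genes kept their direction in all 220 refits under 20 other settings and their call in 202. The 18 lost calls are those of *Rgs10* with NCGap and *Rgs12* with AlivecGap. The 43 uncalled effects gave 836 refits, of which 10 passed the threshold and 24 changed sign. *Rgs5* (AngII with NCGap) was 0.013 with centred arrays. The genes of the pathway lists were not refitted under other settings.

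Between GapmeRs, the count of RGS genes at an adjusted p under 0.05 became 1 with AngII, 1 with PBS and 2 in the mean of both when the prior followed the signal. The replicate numbers were not taken to pair the arrays, since not every same-numbered pair deviated together. A link between same-numbered arrays is not excluded, and the main fit has no term for it. Same-number deviations correlated at -0.09 to 0.32, over 0.1 in 9 of 18 pairs. Set against the 3 arrays of another group, an array correlated best with the one of its own number in 24 of 36 cases. With the replicate block, 1 RGS gene, *Rgs16*, passed in the mean, and the block changed no other call of an RGS gene. Over all probe sets, the 121 adjusted calls with AngII became 74 without moderation, 335 with the prior that follows the signal, 25 without the filter and 26 with only the groups compared. The 59 with PBS became 12, 204, 10 and 1 in the same order, and 89 with quantile normalization. The 404 in the mean became 731 with that prior and 201 without the filter. At the study's criteria, no filter gave 1367 instead of 903 with AngII, 1163 instead of 729 with PBS and 1087 instead of 692 for the interaction. The filter sets how many probe sets are tested. The other causes were not tested.

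Leaving out 1 array gave, between GapmeRs, 0 to 1 adjusted RGS calls with AngII, with PBS and in the mean. At the study's criteria it gave 1 to 2 RGS genes with AngII, 1 to 3 with PBS and 1 to 3 for the interaction. The 3 with PBS came without replicate 2 of AlivecGap with PBS. Over all probe sets, adjusted calls ranged from 18 to 156 with AngII, 3 to 106 with PBS and 225 to 404 in the mean, and calls at the study's criteria from 722 to 1331 with PBS and 553 to 1289 for the interaction. The lowest of these adjusted counts came without replicate 1 of AlivecGap with AngII (18 and 225) and without replicate 1 of NCGap with PBS (3), and the highest counts at the study's criteria without replicate 3 of NCGap with PBS.

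Uncalled log2 values that changed sign when 1 array was left out ranged as follows. Between GapmeRs with AngII they ran from -0.024 to 0.163 for *Rgs10*, -0.046 to 0.090 for *Rgs17*, -0.100 to 0.011 for *Rgs19*, -0.026 to 0.146 for *Rgs3* and -0.382 to 0.032 for *Rgs4*. With PBS they ran from -0.090 to 0.0075 for *Rgs10*, -0.375 to 0.0013 for *Rgs16* and -0.031 to 0.240 for *Rgs3*, and in the mean from -0.029 to 0.065 for *Rgs10* and -0.061 to 0.060 for *Rgs2*. For AngII against PBS they ran from -0.084 to 0.195 for *Rgs5* with AlivecGap, and with NCGap from -0.0044 to 0.140 for *Rgs19*, -0.012 to 0.259 for *Rgs3* and -0.199 to 0.046 for *Rgs5*. For the interaction they ran from -0.183 to 0.088 for *Rgs3* and -0.039 to 0.246 for *Rgs5*.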
